A study of Saccharomyces cerevisiae with 4 samples.

Results

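The mitochondrial ribosomal protein genes described here are 59 of the 6679 genes in the table of *Saccharomyces cerevisiae* mRNA levels. They were chosen by identifier among the MRP, MRPL, MRPS and RSM genes of the mitochondrial ribosome, not all of which are included. Of the 59, 35 encode proteins of the large subunit and 24 proteins of the small subunit. The product name in the R64 reference annotation gives the same subunit for 58 of the 59. The exception is RSM22, whose product is named as a methyltransferase.

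The study sequenced poly(A) RNA from 4 samples of SK1, a laboratory strain, to set growing cells with abundant spliced HAC1 mRNA, driven from outside its own control, beside cells without it; the Hac1 protein switches on the genes of the unfolded protein response. One group of 2 libraries came from vegetative cells given bEST, an agent named only so in the labels, at 20 nM or 40 nM. The other group of 2 came from vegetative cells given the matching volumes of ethanol, the vehicle. All 4 share the SK1 background, a genotype labelled WT, rich medium and harvest in exponential growth. The labels do not spell out bEST, the construct that drives HAC1, ploidy or mating type. Whether the 2 libraries of a group are separate cultures is not stated, so the p-values reflect the spread among these 4 libraries alone, and that spread may be technical.

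Mitochondrial ribosomes translate the few mRNAs of the mitochondrial genome, nearly all of which encode membrane subunits of the respiratory chain and ATP synthase. Almost all of their proteins are encoded in the nucleus, made in the cytosol and imported. In yeast, many of these nuclear transcripts are bound near their 3′ end by Puf3, an RNA-binding protein known to promote their decay in glucose medium and to favour their translation near mitochondria.

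Values are RPKM, reads scaled to gene length and to library depth, so each is a share of its library. The libraries held 1183000 (bEST 20 nM), 4161000 (bEST 40 nM), 2133000 (vehicle matched to 20 nM) and 2599000 reads (vehicle matched to 40 nM), recovered from the steps of the deposited values. A member had a median of 77.0 reads in the 20 nM bEST library and 221 to 309 reads in the other libraries, so counting error was largest at 20 nM bEST. HAC1 (YFL031W) stood at 5922 and 3712 RPKM with bEST, against 487 and 528 RPKM with vehicle. KAR2 (YJL034W), the chaperone of the endoplasmic reticulum that HAC1 activates, stood at 4194 and 3612 RPKM with bEST, against 354 and 395 RPKM with vehicle. Glucose-repressed markers summed over 14 genes to 126 and 138 RPKM with bEST and to 122 RPKM in each vehicle library. Meiotic markers summed over 9 genes to 40.2 and 39.1 RPKM with bEST and to 16.6 and 16.1 RPKM with vehicle. NDT80, the master regulator of middle meiosis, was below 1 RPKM in all 4 libraries and at 0 in the 20 nM bEST library, and the part of these markers in the results was not tested. HOP1 (YIL072W), a meiotic chromosome axis gene, rose to 13.5 and 12.2 RPKM with bEST, against 0.267 and 0.438 RPKM with vehicle (log2 fold change 3.35, SE 0.54, limma adjusted p = 0.0226). Besides HOP1, only SPS4 (1.74, SE 0.45, limma adjusted p = 0.0986) and IME1 (-0.07, SE 0.43) of the 9 meiotic markers were tested. Of the 14 glucose-repressed markers 7 were tested, the rest being too low in level. Of these 7, 0 passed, the widest values being JEN1 at -0.60 and ICL1 at 0.60.

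Mitochondrial ribosomal protein mRNAs were lower with bEST as a group. The log2 fold change of bEST over vehicle was negative for 58 of the 59 genes, where 52.0% of all 5317 genes tested had a negative value. Its median over the 59 was -0.67, a fold of 0.627, beside -0.02 over all genes tested. For 51 of the 59, both bEST libraries lay below both vehicle libraries, against a background of 23.9% of all genes tested. No member had both bEST libraries above both vehicle libraries, where 23.0% of all genes did.

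Few single members passed the threshold of the fit across all genes. At a limma adjusted p under 0.05, 3 members fell and 0 rose, where 0.733% of all genes tested fell and 2.48% rose. At an unadjusted p under 0.05, 38 members were lower and 0 higher, where 7.28% of all genes were lower. The 3 calls rested on few libraries. With the vehicle library matched to 20 nM left out 0 members were called lower, beside 0.733% of all genes, and with the one matched to 40 nM left out 0, beside 0.884%. Without the 20 nM bEST library 1 member was called, beside 0.602% of all genes, and without the 40 nM bEST library 32, beside 8.65%. With each library scaled to its median 9 members were called, beside 1.22% of all genes, and with limma-voom on recovered reads 12, beside 1.49%. No member was called higher in any of these fits.

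**Figure D1:**
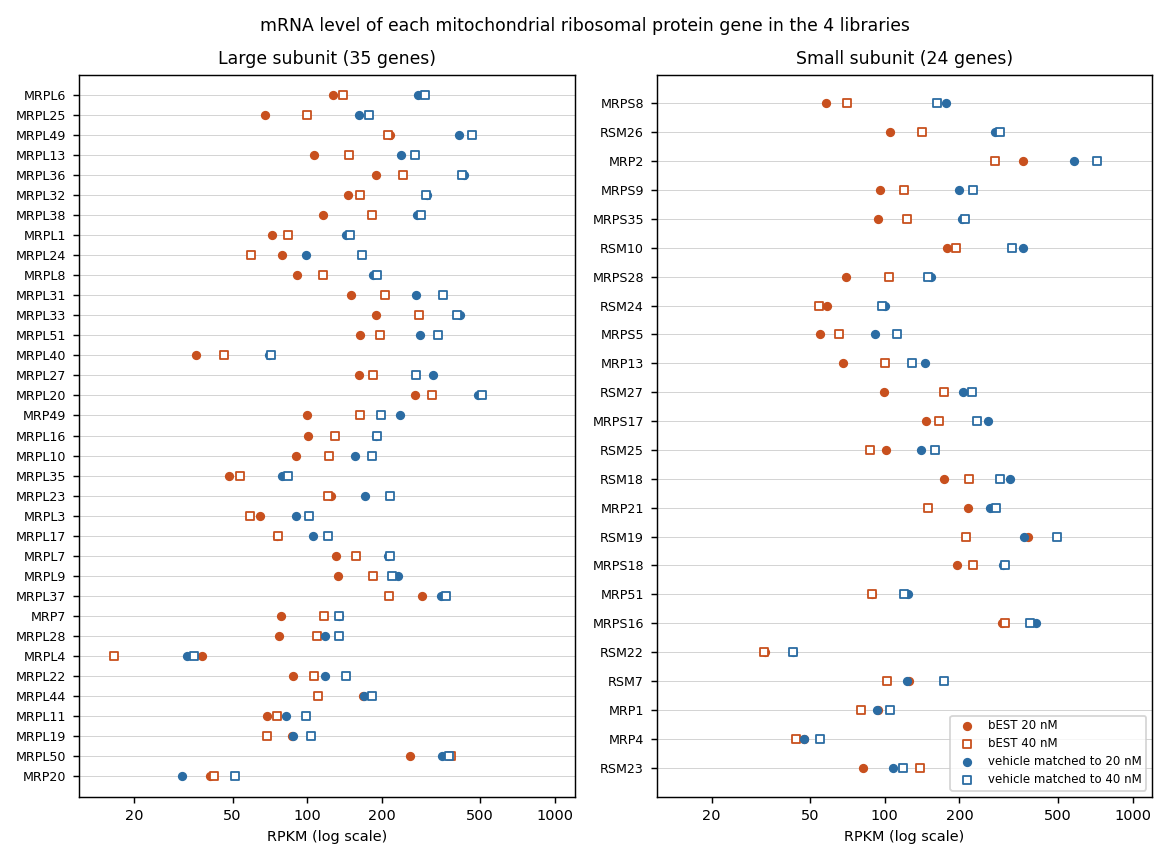
RPKM (log scale) of the 35 large subunit and 24 small subunit genes in each bEST library and each vehicle library, each row 1 gene, ordered by log2 fold change with the lowest at the top. In 51 of the 59 rows both bEST points lie left of both vehicle points, where 23.9% of all genes tested had both bEST libraries lower.

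The gene with the lowest log2 fold change was MRPS8 (YMR158W), the small subunit protein uS8m. It stood at 58.0 and 70.1 RPKM with bEST, against 176 and 162 RPKM with vehicle. Both bEST libraries were below both vehicle libraries, and the Poisson intervals of 95%, which cover counting error only, were 38.5 to 83.8 and 58.1 to 83.9 RPKM with bEST and 149 to 206 and 139 to 188 RPKM with vehicle. Its log2 fold change was -1.39 (SE 0.23, limma adjusted p = 0.0229).

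RSM26 (YJR101W) encodes mS42, a small subunit protein with a fold related to superoxide dismutase. It stood at 105 and 141 RPKM with bEST, against 278 and 291 RPKM with vehicle, again with no overlap between groups. Its log2 fold change was -1.22 (SE 0.24, limma adjusted p = 0.0484). MRPL6 (YHR147C) encodes uL6m of the large subunit. It had 127 and 139 RPKM with bEST, against 280 and 298 RPKM with vehicle. Its log2 fold change was -1.11 (SE 0.22, limma adjusted p = 0.0458). With either vehicle library left out all of these calls ended, with limma adjusted p over the leave-outs of up to 0.133 for MRPS8, 0.312 for RSM26 and 0.474 for MRPL6. Without the 20 nM bEST library or without the variance trend the calls of RSM26 and MRPL6 ended, and with a pseudocount of 0.1 or with no filter on low values that of RSM26 ended.

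Behind these came genes with similar folds that missed the threshold. In the large subunit, MRPL25 (YGR076C), which encodes the mitochondria-specific protein mL59, stood at 67.4 and 99.8 RPKM with bEST, against 162 and 177 RPKM with vehicle (log2 fold change -1.03, SE 0.26). MRPL49 (YJL096W), for bL21m, stood at 216 and 213 RPKM with bEST, against 410 and 464 RPKM with vehicle (-1.02, SE 0.21). MRPL13 (YKR006C), for mL50, stood at 107 and 148 RPKM with bEST, against 239 and 272 RPKM with vehicle (-1.01, SE 0.25). Each of these had no overlap between groups, and their limma adjusted p were 0.0926, 0.0568 and 0.0877.

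In the small subunit, MRP2 (YPR166C), for uS14m, stood at 361 and 278 RPKM with bEST, against 581 and 716 RPKM with vehicle (log2 fold change -1.02, SE 0.24). MRPS9 (YBR146W), for uS9m, stood at 95.7 and 119 RPKM with bEST, against 200 and 226 RPKM with vehicle (-0.99, SE 0.23). The groups did not overlap for either, and the limma adjusted p were 0.0786 and 0.0789.

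A minority of members had values near 0. MRP20 (YDR405W), for uL23m at the exit of the peptide tunnel, was the 1 member with a positive log2 fold change, 0.04 (SE 0.28, limma adjusted p = 0.967). It stood at 40.4 and 42.0 RPKM with bEST, against 31.4 and 51.0 RPKM with vehicle, so the vehicle libraries lay on both sides. Without the vehicle library matched to 20 nM its value was -0.3. MRPL50 (YNR022C), for bL9m, stood at 261 and 381 RPKM with bEST, against 350 and 373 RPKM with vehicle (-0.20, SE 0.26). Without the 20 nM bEST library its value was 0.076, so its sign rests on that library.

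In the small subunit, RSM23 (YGL129C), the yeast counterpart of the human GTP-binding protein DAP3, stood at 81.7 and 139 RPKM with bEST, against 108 and 118 RPKM with vehicle. Its log2 fold change was -0.08 (SE 0.30) and was 0.302 without the 20 nM bEST library. MRP4 (YHL004W), for uS2m, stood at 47.3 and 43.8 RPKM with bEST, against 47.1 and 54.7 RPKM with vehicle (-0.15, SE 0.22). MRP1 (YDR347W), for mS43, stood at 94.2 and 80.1 RPKM with bEST, against 93.1 and 105 RPKM with vehicle (-0.18, SE 0.23). The groups overlapped for all of these genes. MRP1 and RSM26 encode paired proteins of the same fold, and their values lay near opposite ends of the order.

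RSM7 (YJR113C), for uS7m, also overlapped, at 125 and 102 RPKM with bEST, against 123 and 174 RPKM with vehicle (log2 fold change -0.37, SE 0.26). In the large subunit, 2 further members had small differences. MRPL11 (YDL202W), for uL10m, stood at 68.6 and 75.9 RPKM with bEST, against 82.2 and 99.2 RPKM with vehicle (-0.32, SE 0.23). MRPL19 (YNL185C), for uL11m, stood at 87.1 and 69.2 RPKM with bEST, against 87.7 and 104 RPKM with vehicle (-0.30, SE 0.24). Both had the bEST libraries below the vehicle libraries, each by a margin within counting error. The MRPL19 coding sequence of 477 bases shares 113 bases with another gene on the same strand, YNL184C. How reads from the shared stretch were assigned is not known.

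**Figure D2:**
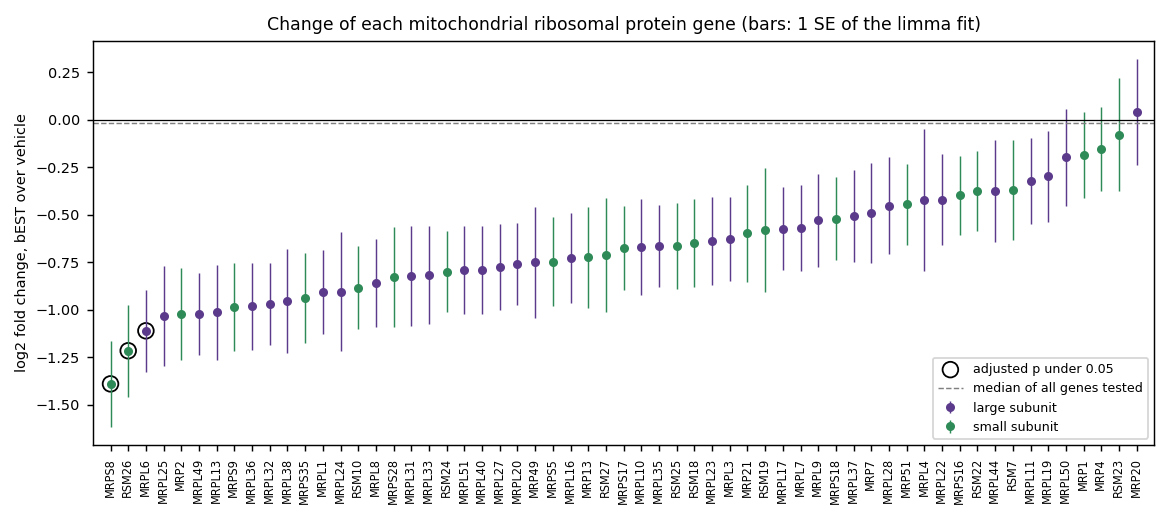
Log2 fold change of bEST over vehicle for each of the 59 genes in ascending order, with bars of 1 SE from the limma fit; colours mark the subunit and rings the 3 genes with an adjusted p under 0.05. All points but MRP20 lie below 0, and the dashed line is the median of all genes tested, -0.02.

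Large and small subunit genes were lower by nearly the same amount. The median log2 fold change was -0.73 over the 35 large subunit genes and -0.67 over the 24 small subunit genes. Negative values were found for 34 of 35 and 24 of 24, and both bEST libraries lay below both vehicle libraries for 32 and 19. The shares over all genes tested were 52.0% and 23.9%. Of the 3 calls, 1 was in the large and 2 in the small subunit. The difference of the medians, large minus small, was -0.06, and it ranged from -0.117 to 0.002 with any 1 library left out, so neither subunit stood apart.

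The level of the 2 subunits was also alike within each library. The median large subunit gene had 101 and 123 RPKM with bEST, against 184 and 191 RPKM with vehicle. The median small subunit gene had 97.4 and 121 RPKM with bEST, against 188 and 192 RPKM with vehicle. Summed over the 59 genes, the RPKM were 7464 and 8277 with bEST, against 12427 and 13249 with vehicle. These sums were 0.476% and 0.50% of all RPKM in the table with bEST, against 0.705% and 0.733% with vehicle. In bulk RNA, fewer cells with a transcript and less transcript per cell cannot be told apart.

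Members differed widely among themselves in level. The highest RPKM was 11.6 and 23.0 times the lowest with bEST, against 18.5 and 20.4 times with vehicle. MRP2, named above, had the highest mean over the 4 libraries, 484 RPKM. RSM19 (YNR037C), for uS19m, was next in the small subunit at 380 and 213 RPKM with bEST, against 365 and 495 RPKM with vehicle. MRPL20 (YKR085C), for mL58, was highest in the large subunit at 272 and 320 RPKM with bEST, against 491 and 510 RPKM with vehicle (log2 fold change -0.76, SE 0.22), followed by MRPL50, named above.

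The lowest level belonged to MRPL4 (YLR439W), for uL29m, another protein of the tunnel exit, at 37.6 and 16.6 RPKM with bEST, against 32.8 and 35.1 RPKM with vehicle. RSM22 (YKL155C), whose relative in human mitochondria acts in small subunit assembly, was the lowest in the small subunit at 32.8 and 32.5 RPKM with bEST, against 42.6 and 42.7 RPKM with vehicle (log2 fold change -0.38, SE 0.21). Next lowest were MRP20 in the large subunit, with a mean of 41.2 RPKM over the 4 libraries, and MRP4 in the small subunit, with 48.2 RPKM.

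The order of the members was largely kept. Across the 59 genes, the Spearman correlation of the level was 0.917 between the bEST libraries, 0.978 between the vehicle libraries, and 0.903 to 0.948 between a bEST and a vehicle library. Genes of higher level had lower log2 fold changes (Spearman correlation -0.444 with the mean vehicle RPKM), a relation in which both measures share the vehicle libraries. These are descriptions across genes of the same libraries, and genes are not independent replicates.

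Each dose had 1 library per treatment, so the doses are described without a test. The median log2 ratio of bEST over matched vehicle was -0.78 at 20 nM, beside -0.10 over all genes tested, and -0.66 at 40 nM, beside 0.07. The ratio was negative for 53 members at 20 nM, where 56.3% of all genes were negative, and for 57 at 40 nM, where 43.3% were. It was negative at both doses for 51 members, where 1499 of all 5317 genes tested were negative at both. Across members, the Spearman correlation between the ratios at the 2 doses was 0.189, and 0.404 over the 17 members with at least 100 reads in every library.

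The members whose ratio was lowest at 40 nM relative to 20 nM were RSM19, MRPL4 and MRPL24. RSM19 had a log2 ratio of 0.06 at 20 nM and -1.22 at 40 nM. MRPL4 had 0.19 at 20 nM and -1.04 at 40 nM, on 40 and 62 reads with bEST, with Poisson intervals of 26.8 to 51.1 and 12.7 to 21.2 RPKM. MRPL24 (YMR193W), for bL28m, had -0.33 at 20 nM and -1.48 at 40 nM. It stood at 79.0 and 59.3 RPKM with bEST, against 99.4 and 167 RPKM with vehicle, so the vehicle libraries differed from each other by more than the bEST libraries did.

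The members whose ratio was highest at 40 nM relative to 20 nM were MRP49, MRP13 and RSM27. MRP49 (YKL167C), for mL61, had a log2 ratio of -1.23 at 20 nM and -0.27 at 40 nM. MRP13 (YGR084C), for mS44, had -1.09 and -0.36, and RSM27 (YGR215W), for mS33, had -1.05 and -0.38. All of these were below vehicle at both doses, and none of the members with the widest dose differences passed the threshold of the fit.

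**Figure D3:**
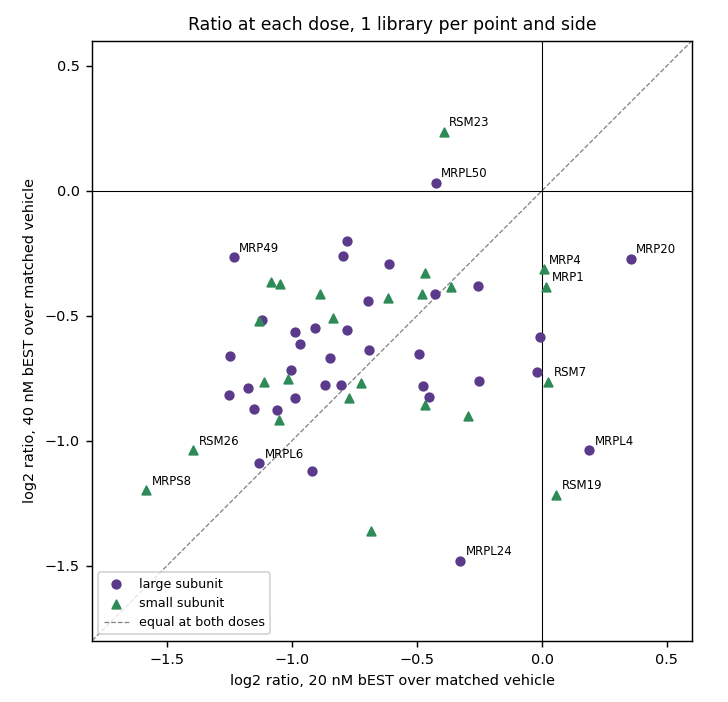
Log2 ratio of bEST over volume-matched vehicle at 20 nM (horizontal) and at 40 nM (vertical) for each of the 59 genes, circles for the large and triangles for the small subunit; the dashed line marks equal ratios. In the lower left quadrant lie 51 of the 59 genes, below vehicle at both doses, where 1499 of all 5317 genes tested were.

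Many of the members share a short sequence just after the stop codon. The letters TGTAAATA, the best known form of the site that Puf3 binds, stood within the 200 bases after the stop codon, on the coding strand of the R64 reference, in 31 of the 59 members, or 52.5%. The same window held them in 4.29% of 5963 nuclear genes of the table. With any base as the fifth letter, TGTANATA, which includes the first form, a form chosen after seeing the data, the count was 58 of 59 members, or 98.3%, against 14.1% of these genes. The 1 member without it was RSM22, the gene whose product is named as a methyltransferase. Of 18 other mitochondrial ribosomal protein genes, outside the members, 66.7% held TGTAAATA and 100.0% held TGTANATA. Neither form was thus particular to the members. R64 is the S288C genome and not SK1, and a match of letters is not evidence of binding.

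The sites of 9 members are shown for the 3 called genes, for MRPL13, MRPS35 and MRPL32, which have C or T as the fifth letter and log2 fold changes of -1.01, -0.94 and -0.97, and for 3 members with small differences. Capitals mark TGTANATA, and each line gives 30 bases of R64 from 5′ to 3′ on the coding strand.
MRPS8, chrXIII:572761-572790, plus strand: tatacggaccaTGTAAATAataatattata
RSM26, chrX:619111-619140, plus strand: atcttatatacTGTAAATAgttttatttta
MRPL6, chrVIII:392535-392564, minus strand: agggaatacctTGTAAATAtcctatgaaaa
MRPL13, chrXI:450358-450387, minus strand: ttttaatatccTGTACATAtatatactctt
MRPS35, chrVII:830212-830241, plus strand: ccattattactTGTACATAaaatattctac
MRPL32, chrIII:119206-119235, plus strand: aaacttaagccTGTATATAgaaacttaatt
RSM23, chrVII:267626-267655, minus strand: cccatttctcaTGTACATAtaaatagataa
MRP20, chrIV:1278499-1278528, plus strand: cccctcacactTGTATATAcggagcaaact
MRPL50, chrXIV:669719-669748, minus strand: gcgtacaatctTGTATATAggcaacatcgc

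With TGTANATA in 58 of the 59 members, its presence both at the lowest log2 fold changes and near 0 follows from that count. The 3 members with small differences shown lack TGTAAATA, whereas MRP1 (-0.18) and MRPL19 (-0.30), not shown, hold it. Taking A first where a gene had several sites, 31 members had A as the fifth letter, 14 had C and 13 had T. Of the members, 45 had 1 site and 13 had 2 or more, with a maximum of 3. The first site began at a median of 50.5 bases after the stop codon, with a range of 8 to 139. The 31 members with TGTAAATA had a median log2 fold change of -0.65, and the 27 with TGTANATA alone had -0.73. Both bEST libraries lay below both vehicle libraries for 28 of the 31 and for 22 of the 27, beside 23.9% of all genes tested. Negative values were found for 31 and 26, beside 52.0%. The 3 called genes all held TGTAAATA, and of the 8 members with the lowest log2 fold changes MRPL13 alone lacked it. The members next in that order, MRPL36, MRPL32, MRPL38, MRPS35, MRPL1 and MRPL24, all lacked it. No difference between the forms was tested.

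PUF3 (YLL013C) itself stood at 34.6 and 16.5 RPKM with bEST, against 23.6 and 22.8 RPKM with vehicle, so the bEST libraries lay on both sides of the vehicle libraries (log2 fold change 0.05, SE 0.36). HAP4 (YKL109W), the limiting subunit of the activator of respiratory genes, stood at 40.6 and 25.7 RPKM with bEST, against 28.7 and 29.8 RPKM with vehicle (0.14, SE 0.28). The widest values among the 7 listed regulators were 0.44 (SE 0.27) for IFH1, a coactivator of cytosolic ribosomal protein genes, and -0.30 (SE 0.44) for HAP2. Of the 7, 0 passed the limma threshold and 0 had an unadjusted p under 0.05.

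For the letters searched in promoters, the share of members lay near the share of all genes. CCAAT is a short string found in many genes, so its search could hardly show a feature shared by the members. CCAAT, the core bound by the Hap complex, stood on either strand between 250 bases before and 50 after the start codon in 44.1% of members and in 43.4% of 5962 genes. AAAATTTT, the core of an element common before genes of cytosolic ribosome production, stood in the same window in 6.78% of members and 9.07% of genes.

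**Figure D4:**
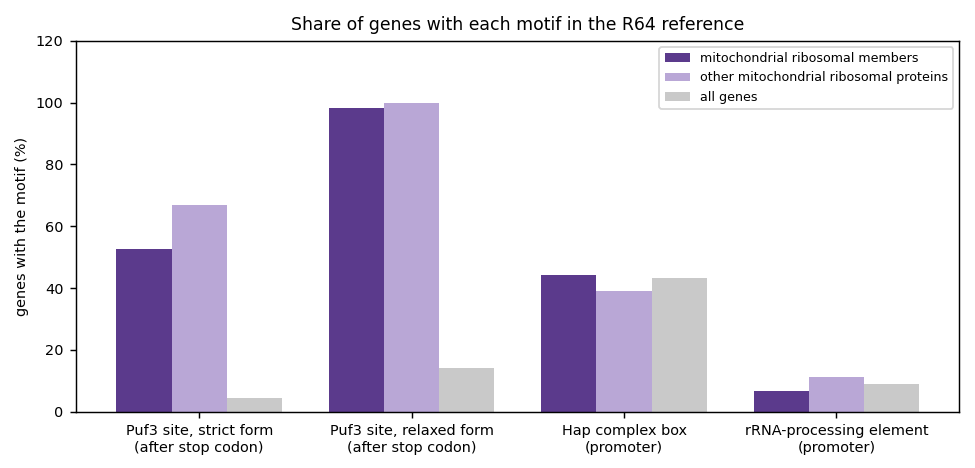
Share of genes (%) holding each motif in R64, for the 59 members, 18 other mitochondrial ribosomal protein genes and all genes of the table with a window; Puf3 sites were searched in the 200 bases after the stop codon and the other motifs in the promoter window. The Puf3 forms were held by 52.5% and 98.3% of members and 66.7% and 100.0% of the 18 others, against 4.29% and 14.1% of all genes.

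Other genes of mitochondrial translation were described by the same counts and medians. The 18 listed mitochondrial ribosomal protein genes outside the members include some of the same name series, such as MRP10, MRPL15, MRPS12 and RSM28. These 18 had a median log2 fold change of -0.58, with 15 negative values. Of them, 0 were past the limma threshold and 9 were lower at an unadjusted p under 0.05. In 11 of the 18, or 61.1%, both bEST libraries lay below both vehicle libraries, beside the 23.9% of all genes. IMG2 (YCR071C), of the large subunit, stood at 66.5 and 122 RPKM with bEST, against 176 and 198 RPKM with vehicle (-1.04, SE 0.32). MRX14 (YDR115W), also of the large subunit, stood at 570 and 841 RPKM with bEST, against 1414 and 1400 RPKM with vehicle (-1.02, SE 0.24).

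The remaining lists had 0 members past the threshold. The 8 tested translation factors had a median log2 fold change of -0.43 (-0.27 without the 20 nM bEST library), the widest being the elongation factors MEF1 (-0.59) and TUF1 (-0.54). TUF1 stood at 550 and 519 RPKM with bEST, against 788 and 765 RPKM with vehicle. The 13 mitochondrial aminoacyl-tRNA synthetases had a median of -0.36, with MST1, for threonine, at -0.87 and MSY1, for tyrosine, at -0.81, and all 13 values were negative. MST1 overlapped between groups, at 78.2 and 190 RPKM with bEST, against 268 and 186 RPKM with vehicle. The 17 tested translational activators and insertion factors had a median of -0.27. Within that list CBP6, an activator of cytochrome b synthesis, stood at 43.3 and 92.4 RPKM with bEST, against 167 and 162 RPKM with vehicle (-1.36, SE 0.36). OXA1, the inner membrane insertase that receives new chains from the ribosome, had a positive value of 0.73 (SE 0.29).

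The 9 ribosome assembly genes had a median log2 fold change of -0.34, which turned to 0.163 under the stricter filter, a mean of 20 RPKM or more. With 1 library left out it lay between -0.14 and -0.007, so this median rests on few genes and libraries. The rRNA methyltransferase gene MRM2 stood at -0.85 (SE 0.28). AFG3 and YTA12, the subunits of the protease that matures the MRPL32 protein, had 0.65 (SE 0.26) and 0.16 (SE 0.22), whereas MRPL32 (YCR003W) itself stood at 146 and 164 RPKM with bEST, against 306 and 301 RPKM with vehicle (-0.97, SE 0.22, limma adjusted p = 0.0702).

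**Figure D5:**
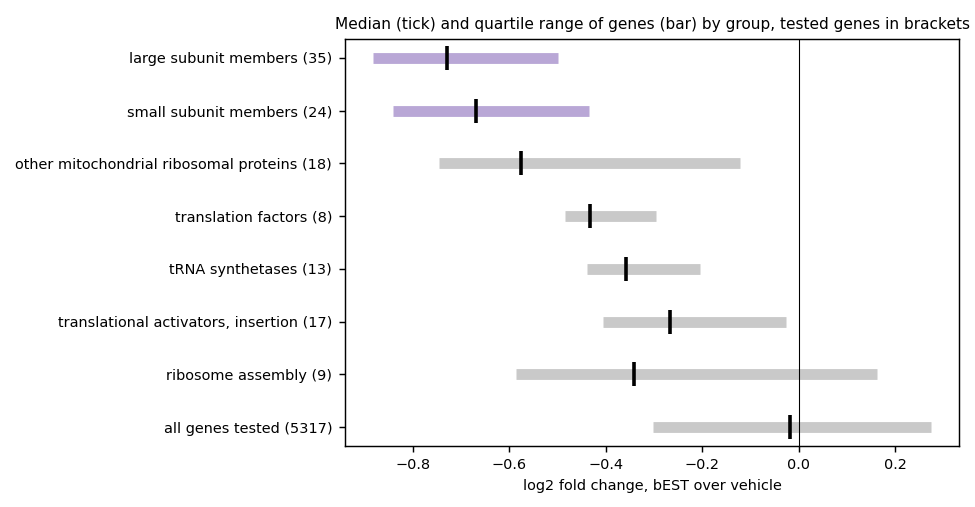
Median log2 fold change of bEST over vehicle (tick) and the range between its quartiles (bar) for large subunit members, small subunit members, 5 lists of other genes of mitochondrial translation and all genes tested. The medians are -0.73 and -0.67 for the members, -0.58 to -0.27 for the lists and -0.02 for all genes.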

How the data were processed

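The authors' deposited RPKM values, 1 per gene and library, carry no named unit. They were read as RPKM because, times the R64 coding length minus 60 bases, they fell on steps of 1 read, from which depth was recovered. Among values equal to at most 50 reads, between 92.9% and 93.7% per library came within 0.05 of an integer. Tools named, per the submitters' processing notes, are STAR and SAMtools. For the counting tool, strand setting, build and filters the entry is: not given in the sources used here. Symbols, coding lengths and sequences came from RefSeq's R64 annotation, which matched 5994 of the 6679 identifiers, 59 members included.

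The 5317 genes averaging 5 RPKM or more, all members among them, were fitted as log2(RPKM + 1) by limma 3.58.1 (R 4.3.3), with a variance trend and no covariate. Adjusted p are Benjamini-Hochberg over all 5317 genes. This scale understates changes of low genes, and differences of dose count as spread. Members and lists were chosen with earlier results of these data known, so medians and counts over them carry no p. Named members are those past the threshold, the 4 lowest and 4 highest changes and the 2 lowest and 2 highest levels of each subunit, and the 3 each way with the widest dose difference. Other lists are named by up to 4 calls or else the 2 widest values. MRPL32, MRPS35 and YTA12 were added after their values were seen. Alternatives changed the pseudocount, filter, scaling, trend, pairing and test, and left out each library.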

Additional observations from a re-analysis of the deposited data

Results flagged for a closer look

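In 8 members the log2 ratio of bEST over matched vehicle had opposite signs at the 2 doses. Each dose has 1 library per treatment, so the difference was not tested. RSM19 (-1.274), MRPL4 (-1.228), RSM7 (-0.789), MRP20 (-0.628), MRP1 (-0.401) and MRP4 (-0.322) had a positive ratio at 20 nM and a negative one at 40 nM, the values being the 40 nM minus the 20 nM log2 ratio. RSM23 (0.63) and MRPL50 (0.457) had a negative ratio at 20 nM and a positive one at 40 nM. The positive ratios at 20 nM were small for RSM19 (0.06), RSM7 (0.02), MRP1 (0.02) and MRP4 (0.01).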

How the results depend on the processing

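The medians over all, large and small subunit members and at each dose moved by less than the spread between libraries in all alternatives run. The counts of negative and of separated members moved by less than 1.5 times. The filter, trend and pairing alternatives leave a member's log2 fold change as it is by construction. Leaving out 1 of 2 libraries moves a group mean by no more than that spread. For these alternatives the stability of the medians was thus largely fixed in advance. The number of members called lower was 3 in the reported fit. It was 9 with median scaling, 1 without the variance trend, 12 with limma-voom on recovered reads, and 0 to 32 with 1 library left out, while 0 were called higher in each. The share of all genes called lower moved too, between 0.47% without the trend and 8.65% without the 40 nM bEST library. The median over all members was -0.775 to -0.601 with 1 library left out. The large minus small difference was -0.008 with limma-voom and -0.117 to 0.002 with 1 library left out. The Puf3 site count was 58 with TGTANATA, a wider motif by construction. With 1 library left out, 4 members took both signs: MRP20 ranged from -0.3 to 0.382, MRPL4 from -0.992 to 0.143, MRPL50 from -0.471 to 0.076 and RSM23 from -0.458 to 0.302. The cause was not tested. With the dose pair as a replicate block 3 members were called, the same 3. Dose differences of the groups correlated at -0.205 across genes, and the crossed pairing, chosen after seeing the data, called 29 members. The block called 2.31% of all genes lower and the crossed pairing 5.74%, against 0.733% in the reported fit. Members had 28 to 170 reads each in the 20 nM bEST library, the shallowest.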

Other observations

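The Puf3 form TGTANATA and annotation to the mitochondrion in R64 were set beside the log2 fold change in the tested genes outside the 59 members, a description chosen after seeing the data and given without a test. The 279 genes annotated to the mitochondrion that had the form within 200 bases after the stop codon had a median log2 fold change of -0.31, and 76.7% of them were negative. The 651 so annotated without it had a median of -0.02, with 52.4% negative. The 461 genes not so annotated that had the form had a median of -0.02, with 52.5% negative, and the 3710 without either had 0.00, with 49.7% negative. The median over the 279 was -0.35 at 20 nM and -0.22 at 40 nM, each on 1 library per treatment. Genes of the other lists of mitochondrial translation were not taken out of any of these counts. Among them are the 18 other mitochondrial ribosomal protein genes, which all had the form.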
